A study of Mus musculus with 20 samples.

Results

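The 6 genes described here encode transcription factors and coactivators that set the contractile state of vascular smooth muscle: myocardin (Myocd), serum response factor (Srf), the myocardin-related factors Mrtfa and Mrtfb, and the Kruppel-like factors Klf4 and Klf5. They were chosen by name from the 54532 genes of the count table, by no cut-off on their values. Earlier results of these data were known when they were chosen. Each was matched to 1 gene identifier, and all 6 passed the filter on low counts, as did 15543 genes in all. The libraries come from the aorta of C57BL/6J mice, an inbred strain, that had received β-aminopropionitrile (BAPN) or water for 1 week. BAPN inhibits the lysyl oxidases, which cross-link elastin and collagen. The 4 groups of 5 libraries were descending thoracic aorta with BAPN, descending aorta with water, ascending aorta with BAPN and ascending aorta with water. The labels give neither the age or sex of the mice, nor the dose of BAPN, nor whether each library comes from a separate animal. The p-values below therefore measure only the spread between these libraries, which may be technical.

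SRF is a DNA-binding protein that recognises the CArG box, a short AT-rich motif framed by paired C and G bases, in the control regions of contractile and cytoskeletal genes. Myocardin binds SRF and turns on contractile genes in smooth and heart muscle, while the myocardin-related factors are held in the cytoplasm by monomeric actin and enter the nucleus when actin polymerises. Klf4 and Klf5 are zinc-finger factors known from studies of injured arteries, where Klf4 opposes myocardin and the contractile genes and Klf5 goes with growth and remodelling; Klf4 is also prominent in endothelium.

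SRF is known to act on its own promoter, so the 250 bases upstream of the annotated start were read for the members and for the contractile genes described further on. RefSeq windows on GRCm38.p6 were at hand for 4 members, namely Srf, Mrtfa, Mrtfb and Klf4. The CArG box was searched on both strands, which read alike because the motif is its own reverse complement. The Srf window held 2 boxes, which began 82 and 62 bases before the start, and the windows of Mrtfa, Mrtfb and Klf4 held no match. Of 32851 windows in the whole table, 482 (1.47%) held a box and 6 (0.0183%) held at least 2. Among 20 contractile genes of the CArG list used below that have a window, 3 held a box, namely Vcl (227 bases before the start), Myl9 (161 bases before it) and Fhl2. Every match found was exact, with CC, then 6 bases of A or T, then GG. Near matches were not counted: the Acta2 window holds ccctatatgg, which differs in a single base. A window with no match may therefore still hold a variant box. Bases further upstream or within the genes were not read. The windows of Srf (minus strand), Vcl (plus strand) and Myl9 (plus strand) are printed 5′ to 3′ on the gene's strand, because Srf is a member and both other genes are SRF targets named in textbooks; capitals mark the CArG box, and a match describes these letters only.
Srf, chr17:46556163-46556412: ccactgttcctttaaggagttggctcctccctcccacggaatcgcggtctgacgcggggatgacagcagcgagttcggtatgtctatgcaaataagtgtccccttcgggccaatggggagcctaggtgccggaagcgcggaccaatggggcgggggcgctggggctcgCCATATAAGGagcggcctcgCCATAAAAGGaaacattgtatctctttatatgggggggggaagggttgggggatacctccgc
Vcl, chr14:20929148-20929397: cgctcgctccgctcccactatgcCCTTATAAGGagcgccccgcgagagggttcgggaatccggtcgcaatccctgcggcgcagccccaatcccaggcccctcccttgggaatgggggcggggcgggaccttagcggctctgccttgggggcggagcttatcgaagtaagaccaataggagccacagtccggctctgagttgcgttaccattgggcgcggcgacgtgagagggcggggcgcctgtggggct
Myl9, chr2:156775214-156775463: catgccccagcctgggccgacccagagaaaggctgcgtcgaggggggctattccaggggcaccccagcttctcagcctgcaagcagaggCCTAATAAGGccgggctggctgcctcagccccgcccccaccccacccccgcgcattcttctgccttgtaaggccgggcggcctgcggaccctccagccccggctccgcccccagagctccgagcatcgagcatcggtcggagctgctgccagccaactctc

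Libraries held 15.7 M to 23.3 M counts. Levels are given as CPM, read counts relative to the scaled library size, and differences are log2 ratios from edgeR's quasi-likelihood test with their standard error (SE). A gene was called when its p-value, adjusted by the Benjamini-Hochberg method over the 15543 genes tested, was under 0.05. The levels of 33 pseudogenes parted the libraries into 2 sets: higher in descending water 1, 2 and 5, all ascending BAPN and ascending water 4 and 5, and lower in all descending BAPN, descending water 3 and 4 and ascending water 1 to 3. This division was seen in the data and no label records it. For part of the results, differences within a set are therefore given beside those over all libraries. The others are given over all libraries only. The 8 smooth muscle markers, among them Acta2 and Myh11, were all detected in every group. Tagln, another of them, had only about 60 CPM; 62.4% of its 1988 exon bases are shared with Gm48529, so its level is uncertain. The 18 heart muscle markers summed to 105 to 132 CPM in descending BAPN and 171 to 241 CPM in descending water libraries. In the ascending aorta their sums were 994 to 1837 CPM in BAPN and 762 to 1614 CPM in water libraries. Ryr2 and Tcap made up most of the descending sums. There Ryr2 averaged 66.6 CPM with BAPN and 60.7 CPM with water, and Tcap 30.7 and 107 CPM. Every other marker averaged at most 6.13 CPM in the descending groups, with Myh6 at 1.11 and 2.22 CPM.

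Under BAPN, myocardin was the member that rose in both regions, about 1.5-fold in each. Mrtfa rose by a smaller amount in the descending aorta, while Srf, Mrtfb, Klf4 and Klf5 did not pass the test in either region. By the adjusted p, 2 of 6 members were called in the descending aorta, where 10.7% of all genes were, and 1 of 6 in the ascending aorta, where 6.34% were. In the same 2 members of the descending aorta the groups did not overlap (7.38% of all genes), and in the ascending aorta this held for Myocd alone (7.51%). The median log2 difference over the 6 members was 0.15 in the descending and 0.096 in the ascending aorta, against -0.00027 and -0.0051 over all genes.

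Myocd (ENSMUSG00000020542; GRCm38 chromosome 11, 65176561 to 65269989, minus strand), the coactivator of SRF, had 150, 131, 136, 150 and 147 CPM in descending BAPN libraries, against 76.0, 104, 89.3, 96.9 and 120 CPM in descending water libraries. In the ascending aorta it had 136, 143, 139, 140 and 127 CPM in BAPN libraries, against 87.1, 101, 91.5, 84.8 and 105 CPM in water libraries. Every BAPN library lay above every water library of its region, and the widest spread was among the descending water libraries. Group means were 143 ± 8.87 CPM in descending BAPN and 97.1 ± 16.3 CPM in descending water libraries, and 137 ± 6.19 CPM in ascending BAPN and 93.8 ± 8.77 CPM in ascending water libraries (SD, n = 5 each). In the descending aorta this was a log2 difference of 0.56 (SE 0.08, adjusted p = 5.34e-05), or 1.47-fold with a 95% interval of 1.31 to 1.65. In the ascending aorta it was 0.54 (SE 0.08, adjusted p = 0.000103), or 1.46-fold with an interval of 1.30 to 1.64. By log2 difference Myocd was the 69th of the 961 genes called higher in the descending aorta and the 48th of the 534 called higher in the ascending aorta. It rested on 1485 to 3092 counts in each library.

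The rise of Myocd was as large within the sets of libraries. In the set with lower pseudogene levels, which holds all descending BAPN and 2 descending water libraries, the log2 difference was 0.61 (SE 0.07, adjusted p = 0.00061). In the set with higher levels, which holds all ascending BAPN and 2 ascending water libraries, it was 0.53 (SE 0.07, adjusted p = 0.0015). In these bulk samples, a change in the share of a cell type and a change in RNA per cell cannot be told apart. The summed smooth muscle markers had 23604 to 26173 CPM in descending BAPN against 19918 to 22651 CPM in descending water libraries. In the ascending aorta they had 23165 to 25653 CPM in BAPN against 19905 to 22011 CPM in water libraries. Most of the sum and of its gap was Acta2, averaging 15084 against 11926 CPM (descending) and 14272 against 11452 CPM (ascending). Myh11, Cnn1, Actg2 and Mylk also had higher means with BAPN in both regions. Smtn had lower ones, at 867 against 913 CPM and 852 against 932 CPM. Lmod1 and Tagln were lower in the descending and level in the ascending aorta. The part of these markers in the result was not tested. Of these 8 markers, Acta2 and Mylk were called higher in the descending and Acta2 alone in the ascending aorta. Of all genes, 6.18% and 3.44% were called higher there. Heart muscle also makes myocardin. In the descending aorta none of its 17 tested markers was called higher and 1, Tcap, was lower, against 6.18% and 4.54% of all genes. The mean of Tcap was 30.7 CPM in BAPN against 107 CPM in water libraries. That gap was about as large as that of the summed heart muscle markers given above. The median log2 difference of the 17 was 0.15, but all of them except Ryr2 and Tcap averaged at most 6.13 CPM there. In the ascending aorta 3 of the 17 were called higher, against 3.44% of all genes. They were Myl3, Actn2 and Tnnt2 (log2 0.91, 0.59 and 0.43, adjusted p = 0.015, 0.015 and 0.039). Tcap alone was called lower, where 2.91% of all genes were, and fell by 1.63 (adjusted p = 1.23e-06). The median of the 17 was 0.49. The ranges of the ascending sums overlapped, and the part of heart tissue in the ascending rise of Myocd was not tested.

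**Figure D1:**
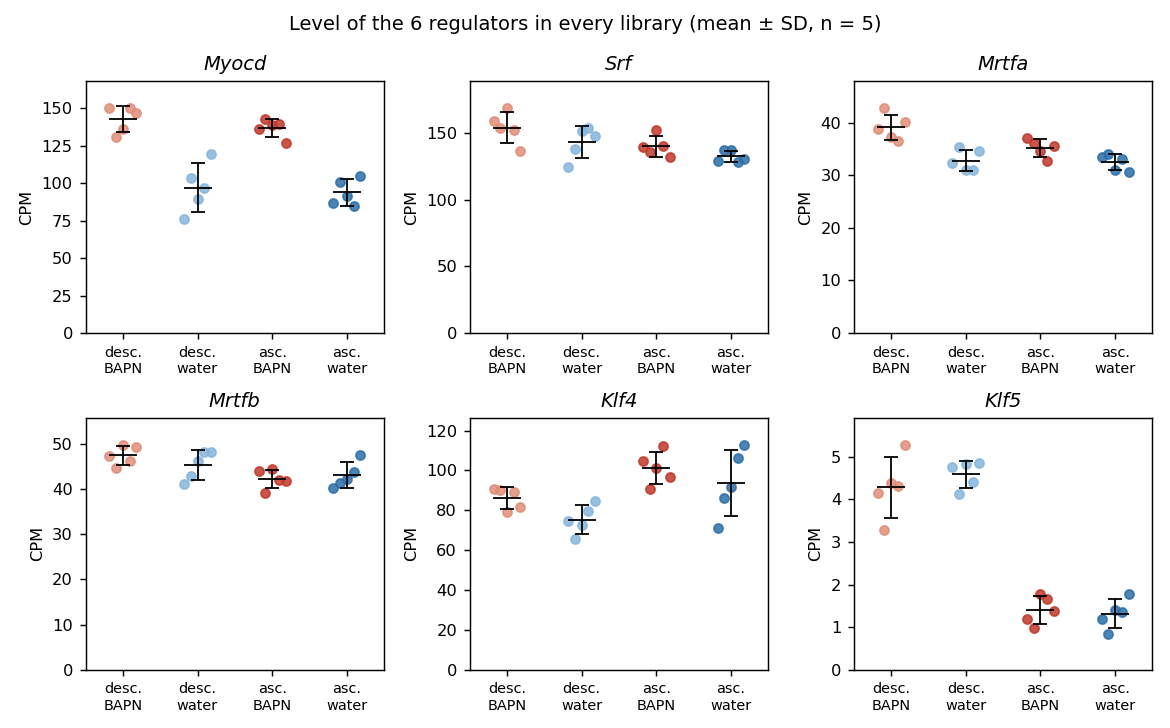
CPM of each of the 6 genes, 1 panel a gene with its own axis from 0, in the 5 libraries of each group; points are libraries, and the black bar with whiskers is the mean ± SD. Myocd lies at 127 to 150 CPM in the BAPN libraries and at 76.0 to 120 CPM in the water libraries, and Klf5 at 3.28 to 5.28 CPM in descending and 0.833 to 1.78 CPM in ascending libraries.

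Srf (ENSMUSG00000015605; chromosome 17, 46548329 to 46556175, minus strand), the DNA-binding partner of myocardin, had 159, 154, 169, 152 and 137 CPM in descending BAPN libraries, against 124, 138, 152, 154 and 148 CPM in descending water libraries. Ascending BAPN libraries had 139, 136, 152, 141 and 132 CPM, against 129, 137, 137, 129 and 131 CPM in ascending water libraries. The groups overlapped in both regions. The fold of BAPN over water was 1.08 (95% interval 0.992 to 1.17, adjusted p = 0.27) in the descending and 1.06 (0.974 to 1.15, adjusted p = 0.47) in the ascending aorta. Both intervals end below the lower bound of the interval of Myocd.

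Mrtfa (ENSMUSG00000042292; chromosome 15, 81012281 to 81190757, minus strand), an actin-regulated coactivator of SRF, had 38.7, 42.8, 37.3, 36.6 and 40.1 CPM in descending BAPN libraries, against 32.2, 35.3, 31.0, 31.0 and 34.6 CPM in descending water libraries. Each descending BAPN library was above each descending water library. The log2 difference was 0.25 (SE 0.05, adjusted p = 0.0032), or 1.19-fold with a 95% interval of 1.10 to 1.29; within the set with lower pseudogene levels it was 0.33 (SE 0.08, adjusted p = 0.042). Ascending BAPN libraries had 37.1, 36.2, 34.5, 32.8 and 35.6 CPM of Mrtfa, against 33.5, 34.1, 31.1, 33.0 and 30.7 CPM in ascending water libraries. Those groups overlapped, and the log2 difference of 0.12 (SE 0.05) did not pass the test (adjusted p = 0.22; unadjusted p = 0.041). The difference of the 2 responses was 0.14 (SE 0.08, 95% interval -0.02 to 0.30), with an unadjusted p = 0.092, the smallest among the members, and an adjusted p = 0.77, so the regions were not shown to differ. Mrtfa shares 10 exon bases with Sgsm3 on the other strand, and reads of that stretch could belong to either gene.

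Mrtfb (ENSMUSG00000009569; chromosome 16, 13256481 to 13417529, plus strand), the relative of Mrtfa, had 47.3, 44.7, 49.8, 46.1 and 49.3 CPM in descending BAPN libraries, against 41.1, 42.8, 46.3, 48.2 and 48.3 CPM in descending water libraries. Levels were 43.9, 39.2, 44.4, 41.9 and 41.8 CPM in ascending BAPN libraries, against 40.3, 41.4, 42.1, 43.8 and 47.6 CPM in ascending water libraries. Groups overlapped in both regions. The fold was 1.05 (95% interval 0.968 to 1.13) in the descending and 0.982 (0.908 to 1.06) in the ascending aorta, with adjusted p = 0.52 and 0.85. An antisense gene, Gm15738, covers 162 of its exon bases but had 293 counts over all libraries, against 16430 for Mrtfb.

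Klf4 (ENSMUSG00000003032; chromosome 4, 55527143 to 55532466, minus strand), known in mouse arteries as an opponent of myocardin, had 90.8, 90.2, 79.4, 89.1 and 81.6 CPM in descending BAPN libraries, against 74.5, 65.8, 72.4, 79.7 and 84.4 CPM in descending water libraries. Levels were 105, 90.8, 101, 112 and 96.9 CPM in ascending BAPN libraries, against 71.4, 86.3, 91.8, 106 and 113 CPM in ascending water libraries. The groups overlapped in both regions, and ascending water libraries spread the most. The fold was 1.14 (95% interval 1.01 to 1.30, adjusted p = 0.19) in the descending and 1.08 (0.953 to 1.23, adjusted p = 0.52) in the ascending aorta. With the pseudogene sets as a term the descending log2 difference was 0.31 and passed (adjusted p = 0.0497), whereas within the set with lower levels it was 0.18 and did not (adjusted p = 0.26). The ascending direction turned within the set with higher levels, at -0.11 (SE 0.07, adjusted p = 0.449): the 2 ascending water libraries of that set, 4 and 5, are the ones with the highest Klf4 of their group.

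Klf5 (ENSMUSG00000005148; chromosome 14, 99298691 to 99315036, plus strand), linked to growth of injured smooth muscle, was the scarcest member, with 15 to 111 counts a library. It had 4.15, 3.28, 4.39, 4.30 and 5.28 CPM in descending BAPN libraries, against 4.76, 4.13, 4.84, 4.40 and 4.85 CPM in descending water libraries. Ascending BAPN libraries had 1.19, 0.977, 1.78, 1.65 and 1.37 CPM, against 1.20, 0.833, 1.41, 1.37 and 1.78 CPM in ascending water libraries. Treated and water libraries overlapped in each region. The fold was 0.934 (95% interval 0.741 to 1.18) in the descending and 1.06 (0.788 to 1.42) in the ascending aorta, with adjusted p = 0.79 and 0.88; at this depth changes smaller than those intervals could not be seen.

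No member's response to BAPN was shown to differ between the regions. The difference of responses, descending minus ascending, was 0.01 for Myocd (SE 0.12, 95% interval -0.22 to 0.25, adjusted p = 0.99), and no member had an unadjusted p under that of Mrtfa. edgeR called 0 genes of 15543 in this comparison (0.0%), with 1070 at an unadjusted p under 0.05; DESeq2 called 14 and limma-voom 0, none of them a member.

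**Figure D2:**
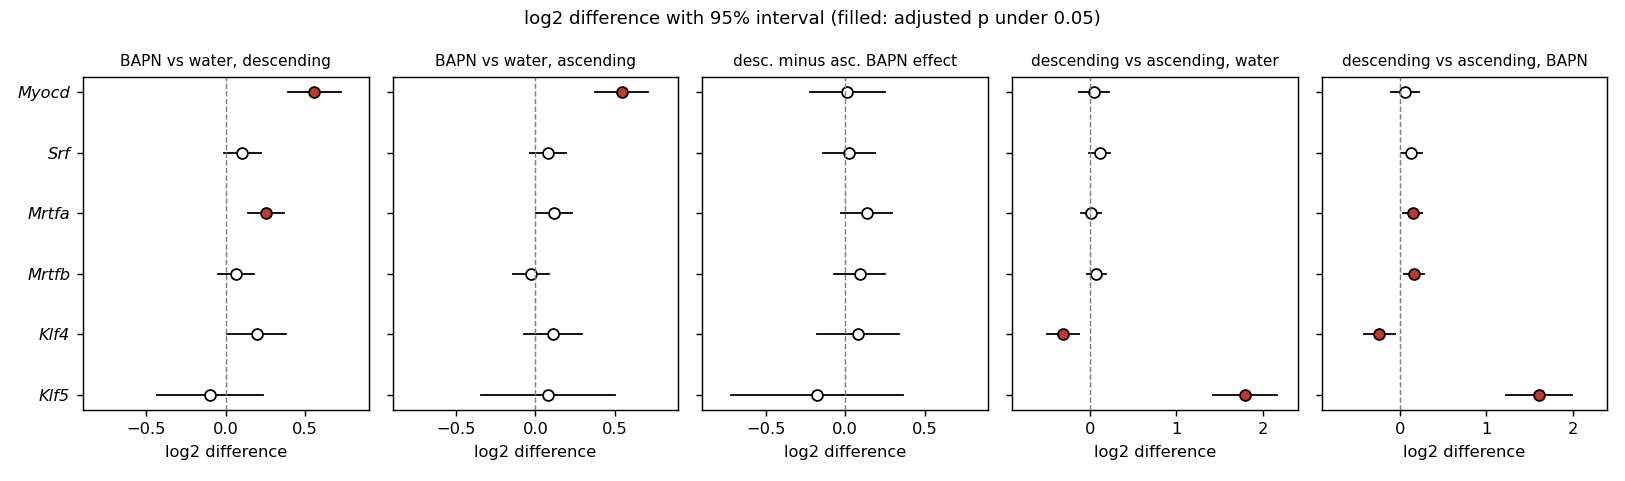
Log2 difference of each member with its 95% interval in 5 comparisons, namely the response to BAPN by region, the difference of these responses, and the regional difference by treatment; filled symbols have an adjusted p under 0.05. Myocd stands at 0.56 and 0.54 in the 2 comparisons of treatment and at 0.06 and 0.05 in the 2 of region, while Klf5 stands at 1.61 and 1.79 in those of region.

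Between the regions the Kruppel-like factors differed most, in opposite directions. Under water, 2 of 6 members were called, Klf5 and Klf4, against 27.3% of all genes, and the groups of 1 member did not overlap, against 20.1% of all genes. Klf5 averaged 4.59 ± 0.319 CPM in descending and 1.32 ± 0.344 CPM in ascending water libraries (SD, n = 5 each), a log2 difference of 1.79 (SE 0.18, adjusted p = 1.47e-08), or 3.46-fold, and no descending library was as low as any ascending one. Klf5 was the 89th of 1885 genes called higher in the descending aorta by log2 difference. It was 1.53 within the set with higher and 1.98 within the set with lower pseudogene levels, with adjusted p = 0.0014 and 0.00034.

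Klf4 averaged 75.4 ± 7.09 CPM in descending and 93.7 ± 16.4 CPM in ascending water libraries. The log2 difference was -0.31 (SE 0.09, adjusted p = 0.0085), or 1.24-fold lower in the descending aorta, although the groups overlapped. It was -0.56 (SE 0.09, adjusted p = 0.0013) within the set with higher and -0.13 (SE 0.10, adjusted p = 0.44) within the set with lower pseudogene levels. Beside Klf4, the 10 endothelial markers went both ways between the regions, with Vwf and Sox17 called higher and Kdr and Emcn lower in the descending aorta and a median log2 difference of -0.071; their sum was 1283 to 1541 CPM in descending and 974 to 1447 CPM in ascending water libraries. Beside Klf5, 5 of 8 adipocyte markers were called higher and 0 lower in the descending aorta, with a median of 0.85. Of all genes, 12.1% were called higher and 15.2% lower in this comparison. Fabp4 averaged 162 CPM in descending and 75.8 CPM in ascending water libraries, and the adipocyte sums were 237 to 477 and 66.0 to 184 CPM. The 11 markers of mesothelium and epithelium, where Klf5 is known to be made, summed to 22.4 to 38.6 CPM in descending and 260 to 433 CPM in ascending water libraries. The part of these cell types in the differences of Klf4 and Klf5 was not tested.

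The other 4 members differed little between regions under water. Myocd averaged 97.1 ± 16.3 CPM in descending and 93.8 ± 8.77 CPM in ascending water libraries, a fold of 1.03 with a 95% interval of 0.919 to 1.16. Srf had a fold of 1.08 (0.997 to 1.17), Mrtfa of 1.01 (0.933 to 1.09) and Mrtfb of 1.05 (0.973 to 1.14). None of these passed the test, with adjusted p between 0.16 and 0.89; Srf passed without descending water 1 (log2 0.16, adjusted p = 0.026).

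Under BAPN, 4 of 6 members were called between the regions, against 29.8% of all genes, and the groups of 3 did not overlap, against 21.4%. All descending BAPN libraries are in the set with lower and all ascending BAPN libraries in the set with higher pseudogene levels, so region and set cannot be told apart here. Klf5 averaged 4.28 ± 0.715 CPM in descending and 1.39 ± 0.328 CPM in ascending BAPN libraries (log2 1.61, SE 0.18, adjusted p = 1.2e-07). Mrtfb had a log2 difference of 0.17 (adjusted p = 0.023), Mrtfa of 0.15 (adjusted p = 0.039) and Klf4 of -0.23 (adjusted p = 0.0495). These 3 are weak calls. That of Klf4 was lost without any 1 of 14 libraries, namely descending BAPN 1 to 5, descending water 1, 3 and 4, ascending BAPN 1, 3, 4 and 5 and ascending water 2 and 3 (adjusted p up to 0.134), that of Mrtfa without ascending BAPN 3, 4 or 5 or descending BAPN 1, 2 or 5 (up to 0.125), and that of Mrtfb without ascending BAPN 2 or descending BAPN 3 or 5 (up to 0.0723). With the sets as a term, the log2 difference was 0.19 for Mrtfb, 0.20 for Mrtfa and -0.04 for Klf4, with adjusted p = 0.11, 0.097 and 0.88. Srf missed the threshold at 0.14 (adjusted p = 0.071), and passed without ascending BAPN 3, descending BAPN 5 or descending water 1 (adjusted p down to 0.014).

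Ordered by level per kilobase of exon, Srf was the most abundant member in every group. Its mean was 53.3 CPM per kilobase in descending BAPN, 49.5 in descending water, 48.4 in ascending BAPN and 45.9 in ascending water libraries. Klf4 came next, at 28.3, 24.7, 33.2 and 30.7 CPM per kilobase in the same order of groups, and then Myocd, at 22.2, 15.1, 21.3 and 14.6. Mrtfa, at 6.40, 5.37, 5.76 and 5.31, and Mrtfb, at 5.28, 5.04, 4.70 and 4.79, lay close together, and in the water groups their ratio within a library ran on both sides of 1. Klf5 was last, at 0.823, 0.883, 0.268 and 0.253 CPM per kilobase.

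Ratios within a library cancel its scaling factor. Myocd over Srf had a median of 0.425 (range 0.362 to 0.485) in descending BAPN and 0.283 (0.265 to 0.365) in descending water libraries, and of 0.439 (0.411 to 0.472) in ascending BAPN and 0.303 (0.297 to 0.361) in ascending water libraries. The ascending groups were apart and the descending ones overlapped slightly at their ends. Myocd over Klf4 had a median of 0.799 (0.689 to 0.856) in descending BAPN against 0.585 (0.484 to 0.747) in descending water libraries. In the ascending aorta it was 0.620 (0.591 to 0.745) in BAPN against 0.473 (0.379 to 0.579) in water libraries. Again only the ascending groups were apart. Klf4 over Klf5 had a median of 35.3 in descending BAPN, 27.2 in descending water, 121 in ascending BAPN and 111 in ascending water libraries, and no descending library reached the lowest ascending one. Myocd over Mrtfa had a median of 3.5 in descending BAPN against 2.79 in descending water libraries, and of 3.75 in ascending BAPN against 2.80 in ascending water libraries.

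**Figure D3:**
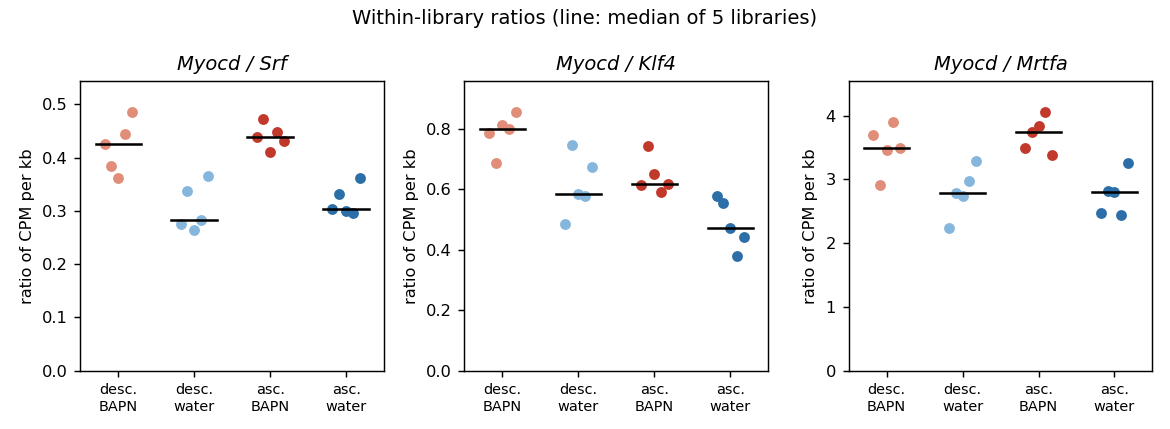
Ratio of CPM per kilobase of Myocd over Srf, Klf4 and Mrtfa within each library, 1 panel a pair, by group; points are libraries and the bar is the group median. Myocd over Srf has medians of 0.425 and 0.439 in the BAPN groups, above 0.283 and 0.303 in the water groups.

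Among the known upstream factors and repressors of myocardin, 11 of 39 tested genes rose and 3 fell in the descending aorta under BAPN, and 3 rose and 2 fell in the ascending aorta. Of all genes, 6.18% were called higher and 4.54% lower in the descending response, and 3.44% higher and 2.91% lower in the ascending one. Their median log2 difference was 0.036 in the descending and 0.034 in the ascending aorta, near that of all genes given above. The descending count of higher genes fell to 6 or 7 without descending BAPN 1 or 5 or descending water 1, 2 or 3, to 5 with upper-quartile scaling, and to 2 within the set with lower pseudogene levels. Tead1, a TEA-domain factor that binds near CArG boxes, had 112 ± 5.14 CPM in descending BAPN and 86.1 ± 5.70 CPM in descending water libraries (log2 0.38, adjusted p = 1.14e-05), and 121 ± 6.09 CPM in ascending BAPN and 98.7 ± 4.08 CPM in ascending water libraries (0.30, adjusted p = 0.00027). Prkg1, the cGMP-dependent kinase that favours the contractile state, rose by 0.30 and 0.38 (adjusted p = 0.0068 and 0.0014). Prrx1, a homeobox factor, fell by 0.27 and 0.22, with adjusted p = 7.94e-05 and 0.0014 over all libraries and 0.0523 and 0.0525 within a set. Pdgfb, the growth factor that represses contractile genes in cultured smooth muscle, fell by 0.40 and 0.41 in the descending and ascending aorta (adjusted p = 0.0041 and 0.0049); within the higher set its ascending difference was -0.29 and did not pass (0.158).

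The regulators of actin that control the myocardin-related factors had 5 of 26 genes higher and 2 lower under BAPN in each region: Rock2, Rock1, Cap1, Diaph1 and Actb rose, and Diaph3 and Phactr1 fell. Of all genes, 6.18% were called higher and 4.54% lower in the descending aorta, and 3.44% higher and 2.91% lower in the ascending aorta. The median log2 difference of the 26 was 0.066 in the descending and 0.068 in the ascending aorta. Rock2, a kinase that promotes actomyosin contraction, had 302 ± 16.4 CPM in descending BAPN and 237 ± 9.85 CPM in descending water libraries (log2 0.35, adjusted p = 4.04e-06), and 294 ± 9.94 CPM in ascending BAPN and 234 ± 7.77 CPM in ascending water libraries (0.33, adjusted p = 1.19e-05). Cap1, which recycles actin monomers, rose by 0.25 and 0.21 (adjusted p = 1.91e-05 and 0.000146). The formin Diaph1, which builds actin filaments, rose by 0.35 in the descending aorta (adjusted p = 1.17e-05) and by 0.16 in the ascending aorta (adjusted p = 0.029), where the call was lost without ascending BAPN 1, 2 or 4 or ascending water 1, 2 or 5 (up to 0.084) and within the higher set (0.164). Its relative Diaph3 was lower, with 3.0 ± 0.922 CPM in descending BAPN and 6.51 ± 0.500 CPM in descending water libraries (log2 -1.12, adjusted p = 2.82e-05), and 3.65 ± 0.456 CPM in ascending BAPN and 5.53 ± 0.704 CPM in ascending water libraries (-0.60, adjusted p = 0.017, and up to 0.053 without ascending BAPN 2 or 3). Without ascending BAPN 2 or 3 the 2 lower genes of the ascending aorta were not called, and 1 was without ascending BAPN 1 or 4 or ascending water 1, 3 or 5. In the descending aorta 1 was called without descending BAPN 2, 3 or 4 or descending water 1, 4 or 5.

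Of 10 other partners of SRF, the LIM proteins Csrp2 and Csrp1 rose in both regions and the other 8, among them the ternary complex factors Elk1, Elk3 and Elk4, were not called. The shares of all genes called higher were 6.18% in the descending and 3.44% in the ascending aorta. Csrp1 is also on the list of CArG genes below and is counted there again. Csrp2 had 1231 ± 110 CPM in descending BAPN and 907 ± 50.2 CPM in descending water libraries (log2 0.44, adjusted p = 5.12e-05), and rose by 0.29 in the ascending aorta (adjusted p = 0.0051). Csrp1 rose by 0.16 and 0.18 (adjusted p = 0.041 and 0.026). These were weak calls, lost in the descending aorta without ascending BAPN 2, descending BAPN 2, 3 or 4 or descending water 1, 2, 3 or 5 (up to 0.14), and in the ascending aorta without ascending BAPN 2, 3 or 4 or ascending water 3 or 5 (up to 0.088). Fhl2, a LIM-only protein with a CArG box upstream, had a log2 difference of -0.14 (adjusted p = 0.63) in the descending and 0.40 (adjusted p = 0.088; 0.016 without ascending water 1) in the ascending aorta. Hopx, a homeodomain protein that antagonises SRF, had -0.78 (adjusted p = 0.079; 0.041 without descending water 4) and -0.20 (adjusted p = 0.68).

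Among smooth muscle genes with known CArG control, 10 of the 24 tested rose under BAPN in each region and the other 14 did not pass the test. Of all genes, 6.18% were called higher in the descending and 3.44% in the ascending aorta. This list, like the others, was drawn up with earlier results of these data known, so its count is a description. The median log2 difference of the 24 was 0.12 in the descending and 0.15 in the ascending aorta. Acta2, smooth muscle actin, had 15084 ± 715 CPM in descending BAPN and 11926 ± 693 CPM in descending water libraries (log2 0.34, SE 0.05, adjusted p = 1.77e-05), and 14272 ± 689 CPM in ascending BAPN and 11452 ± 463 CPM in ascending water libraries (0.32, SE 0.05, adjusted p = 5.39e-05). Tpm1, a tropomyosin, rose by 0.22 and 0.27 (adjusted p = 0.00089 and 8.86e-05), the adhesion protein vinculin (Vcl) by 0.31 and 0.28 (adjusted p = 0.00067 and 0.0032), and Pgm5, found at adhesion plaques of smooth muscle, by 0.19 and 0.16 (adjusted p = 0.0018 and 0.011). Each of these 4 genes had a smaller log2 difference than Myocd in both regions.

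Several classical contractile genes, given here for their role as markers, did not pass. Myh11, smooth muscle myosin heavy chain, had a log2 difference of 0.10 (SE 0.06, adjusted p = 0.31) in the descending and 0.15 (SE 0.06, adjusted p = 0.11) in the ascending aorta, where it passed within the higher set (0.20, adjusted p = 0.043) and without ascending water 1 (adjusted p = 0.036). Calponin (Cnn1) had 0.13 (adjusted p = 0.16) and 0.04 (adjusted p = 0.77). In the descending aorta the count of 10 fell to 6 without descending water 1, to 5 with the pseudogene sets as a term and to 1, Acta2, within the lower set, where only 2 descending water libraries remain and 430 genes were called in all. In the ascending aorta it was 6 without ascending BAPN 4 or ascending water 5, and 10 within the higher set. Within the lower set Tpm1, Vcl and Pgm5 kept log2 differences of 0.20, 0.24 and 0.21 (adjusted p = 0.084, 0.061 and 0.089).

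**Figure D4:**
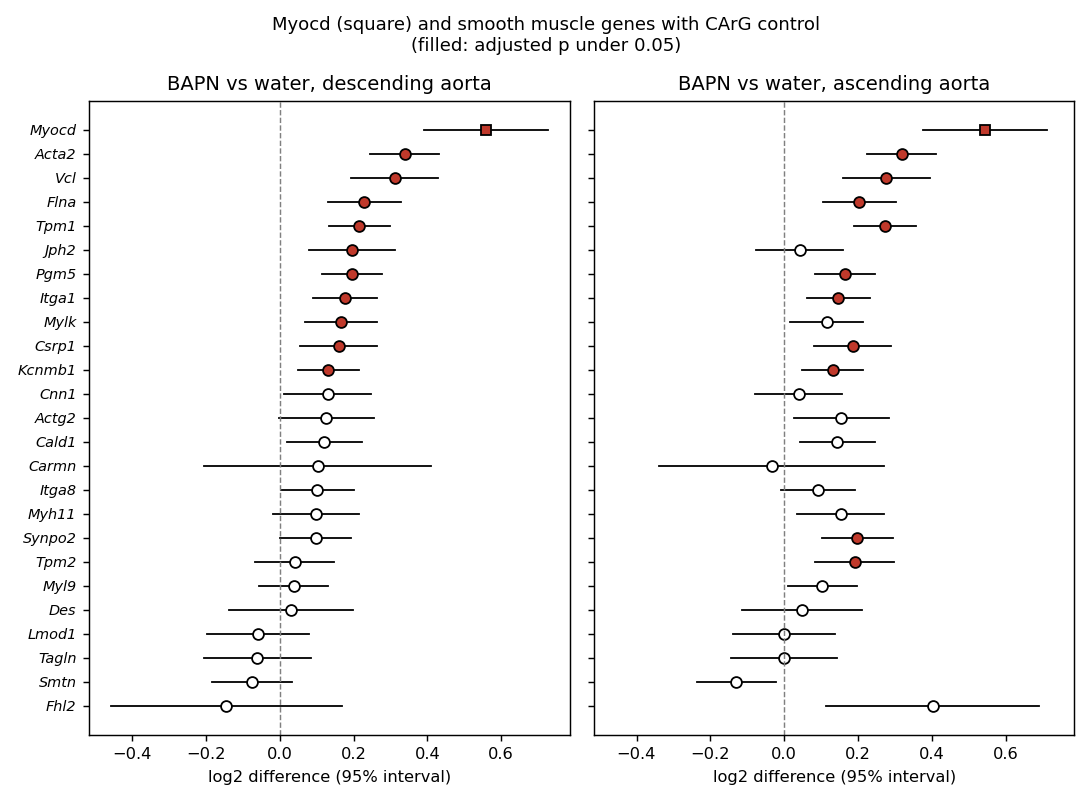
Log2 difference of BAPN against water for the 24 tested smooth muscle genes with known CArG control, with 95% intervals, in the descending and the ascending aorta, with Myocd for comparison; filled symbols have an adjusted p under 0.05. Acta2 stands at 0.34 and 0.32, Vcl at 0.31 and 0.28, and 10 genes are filled in each region.

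The cytoskeletal genes known as targets of the myocardin-related factors had 7 of 20 higher in the descending aorta, with a median log2 difference of 0.11, and 6 higher and 1 lower in the ascending aorta, with a median of 0.088. Of all genes, 6.18% were called higher in the descending aorta, and 3.44% higher and 2.91% lower in the ascending aorta. Vcl and Actb, called higher in both regions, are also counted among the CArG genes and the regulators of actin, respectively. Wdr1, an actin-disassembly factor, rose by 0.35 and 0.27 in the descending and ascending aorta (adjusted p = 1.26e-05 and 0.00056), and the focal adhesion protein Tes by 0.21 and 0.48 (adjusted p = 0.022 and 8.19e-06). The descending call of Tes was lost without descending BAPN 2 or 3 or descending water 4 (up to 0.067). Zyxin (Zyx) rose by 0.18 in the descending aorta (adjusted p = 0.0026; 0.12 and 0.29 within the lower set) and had 0.07 (adjusted p = 0.31) in the ascending aorta. The gene that fell in the ascending aorta, Lima1, had a log2 difference of -0.16 (adjusted p = 0.048) and was not called in 18 of the 20 fits that left out 1 library (adjusted p up to 0.131). In the descending aorta 4 of the 20 were called higher with the pseudogene sets as a term and 1 within the lower set.

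The immediate early genes, which SRF controls with ternary complex factors, had 2 of 22 higher and 1 lower in the descending aorta, and 1 higher in the ascending aorta, shares near those of all genes given above. Their median log2 difference was 0.013 in the descending and -0.11 in the ascending aorta. Ier5, a stress-induced early gene, rose in both, with 63.1 ± 9.90 CPM in descending BAPN and 34.0 ± 5.34 CPM in descending water libraries (log2 0.89, adjusted p = 2.76e-06), and 52.1 ± 2.88 CPM in ascending BAPN and 36.2 ± 4.99 CPM in ascending water libraries (0.52, adjusted p = 0.0022). Myc rose by 0.51 in the descending aorta (adjusted p = 0.017; 0.052 without descending water 2), and Egr3 fell by 0.44 there (adjusted p = 0.028), a call lost without any of descending BAPN 1, 2, 4 and 5 and descending water 2, 3 and 4 (up to 0.078). In the ascending aorta Myc had 0.20, Egr3 -0.37 and Ier3 -0.25 (adjusted p = 0.41, 0.057 and 0.052), and the last pair passed when some single libraries were left out (lowest adjusted p = 0.036 for Egr3 and 0.021 for Ier3).

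Within the Kruppel-like family of 17 genes, Klf4 had rank 4 and Klf5 rank 14 by CPM per kilobase in each of the 4 groups. Above Klf4 stood Klf6, Klf2 and Klf9, at 70.1, 56.0 and 47.7 CPM per kilobase in descending BAPN libraries, against 69.8, 52.5 and 48.9 in descending water libraries. Of 12 other family members tested, 3 rose under BAPN in the descending and 1 in the ascending aorta, where 6.18% and 3.44% of all genes were called higher. Klf3, a repressor, rose by 0.32 in the descending aorta (adjusted p = 8.66e-05) and by 0.19 in the ascending aorta (adjusted p = 0.019), where the call was lost without ascending BAPN 1, 2 or 3 or ascending water 1 or 5 (up to 0.065) and within the higher set (0.143). Klf13 and Klf7 rose by 0.18 and 0.25 in the descending aorta (adjusted p = 0.0081 and 0.011; 0.43 and 0.23 within the lower set), and Klf16 had 0.29 there (adjusted p = 0.051, and from 0.0043 to 0.171 when 1 library was left out). In the ascending aorta Klf13, Klf7 and Klf16 had 0.07, 0.08 and -0.06 (adjusted p = 0.40, 0.54 and 0.79).

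**Figure D5:**
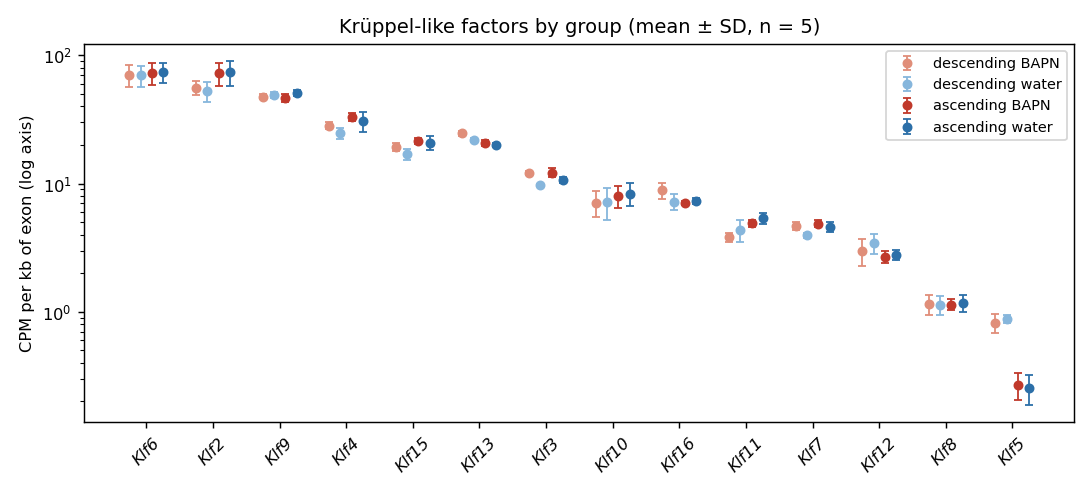
CPM per kilobase of exon, on a log axis, of the 14 tested Kruppel-like genes in the 4 groups; points are group means and whiskers the SD over 5 libraries. Klf4 lies at 24.7 to 33.2 CPM per kilobase and Klf5 at 0.253 to 0.883; they have ranks 4 and 14 of 17.

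The genes whose log2 CPM followed each member most closely over the 20 libraries, among 10686 genes, are given as a description; the libraries share their 4 groups, which contributes to each correlation. Dnajc3 (Pearson r = 0.957), Hipk3 (0.941) and Pdcd6ip (0.941) were most like Myocd, and once group means were subtracted Mgat4a (0.849), Ap2a2 (0.837) and Tmem39a (0.813) were. Most like Srf were Tle3 (0.896), Jph2 (0.886) and Eif4g1 (0.879), and Tle3 remained among the 3 nearest with group means subtracted (0.834). Most like Mrtfa were Irf2bp2 (0.846), Pim1 (0.839) and Gapvd1 (0.838), and most like Mrtfb were Ext2 (0.834), Foxn2 (0.822) and Rfx2 (0.816). Gfpt2 was the nearest to Klf4 both over the libraries (0.917) and with group means subtracted (0.871). Klf5 was followed by Epha3 (0.966), Smoc1 (0.963) and Gpsm2 (0.963), and with group means subtracted by Tmem245 (0.841).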

How the data were processed

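RNA of 20 libraries was sequenced. Per the submitters' processing notes, fastp, STAR 2.5, HTSeq 0.6.1 and the mm10 genome were used, and the authors deposited raw read counts for every gene; the annotation and settings are not given in the sources used here. Per the labels' protocols a NEBNext Ultra kit was used, which does not mark strand, so reads of overlapping antisense genes cannot be told apart. Symbols, coordinates and exon lengths are those of GENCODE M21 on GRCm38 (54409 gene IDs matched, 123 did not), and upstream windows are from RefSeq on GRCm38.p6. Groups were read from the sample titles and the series design text. Genes were filtered with filterByExpr (minimum count 10, minimum total 15) and scaled by TMM in edgeR 4.0.16 (R 4.3.3). A quasi-likelihood model with 1 coefficient a group (16 residual degrees of freedom) gave 5 comparisons, each adjusted by Benjamini-Hochberg over 15543 genes. DESeq2 1.42.0, limma 3.58.1 and the other alternatives are in the closing section. The steps were also run on simulated counts, with changes larger than any member's response to BAPN put into genes more abundant than Klf5. That run does not bear on smaller changes or scarcer genes. Intervals of 95% use the model's spread.

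The members and the 7 gene lists were chosen with earlier results of these data known. The rule for names takes the 6 members, up to 4 genes of each list with the smallest p in either comparison with BAPN, the 3 genes most like each member, and genes a member's role calls for; genes listed as the whole of a small count are named with it. Log2 CPM for likeness used a prior count of 2 and genes averaging 5 CPM or more. Replicate numbers were not used as pairs in the main model, and the labels do not link them to animals. Over all pairs of groups, same-numbered libraries deviated together with correlations of -0.05 to 0.17. Between descending and ascending BAPN libraries these were 0.064 to 0.106, and each number correlated best with its own, so a pairing there is not excluded. Fits with the number as a block are in the closing section. Figures were drawn with matplotlib 3.10.9.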

Additional observations from a re-analysis of the deposited data

How the results depend on the processing

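Alternatives were DESeq2-type (relative log expression) factors, scaling by the upper quartile, no filter, a stricter filter (1 CPM in 5 libraries), DESeq2, limma-voom, only the compared groups, the replicate block, the block within treatment, leaving out each library, raw library totals for the levels and, from a division seen in the data, the pseudogene sets as a term and fits within a set. The fits that left out 1 library were tallied apart from the rest. In the other alternatives, 286 of 306 log2 differences of members kept their direction and side of the threshold. Of 71 counts of called genes, 58 stayed within 1.5 times the value first given, and all 24 group levels moved by less than 1 SD. By the same rules, 691 of the 740 results with 1 library left out stayed the same. The calls of Myocd in both regions, of Mrtfa in the descending aorta and of Klf5 between regions held under all of them. Between regions under BAPN, Mrtfa lost its call with upper-quartile scaling (0.13), no filter (0.16), the stricter filter (0.14), only the compared groups (0.14) and the sets term (0.20), Klf4 with limma-voom (-0.23) and the term (-0.040), and Mrtfb with the term (0.19). Klf4 gained one with the term in the descending aorta (0.31) and lost that between regions under water in the lower set (-0.13). The direction turned, with no call on either side, for Klf5 in the ascending aorta (-0.013 with the term, -0.17 within the set), Klf4 there (-0.11), the difference of responses of Srf (-0.10) and Klf5 (0.010) with the term, and between regions under water Mrtfb (-0.061, higher set), Myocd (-4.8e-05, lower set) and Mrtfa (-0.086, lower set). Genes called numbered 542 with the term and 483 within the set for the ascending response, 430 within the set for the descending one, 2755 with the term between regions under BAPN, and 2537 and 2601 within the sets under water; the fits within sets hold fewer samples. The difference of responses called 41 genes with no filter and 14 with DESeq2. With upper-quartile scaling, 706 genes were higher and 874 lower in the descending response, against 961 and 706, and 449 and 529 in the ascending one, against 534 and 452. CArG genes called higher in the descending aorta numbered 6 with that scaling or only the compared groups, 5 with the term and 1 within the set; these counts of a list under each setting were added after seeing the data. The cause of these shifts was not tested.

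With the replicate number as a block, 1762 and 1125 genes were called in the descending and ascending responses, 4733 between regions under BAPN, 4387 under water and 0 for the difference of responses, and the block brought Srf past the threshold between regions under BAPN (0.14 with the block, 0.14 with the block within treatment); it changed no other member's call. The block within treatment called 20 genes for the difference of responses. Same-numbered libraries of descending and ascending BAPN correlated best with each other in 5 of 5 numbers, a hint from the data only.

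Leaving out each library gave 1240 to 1684 calls in the descending response, 719 to 1094 in the ascending one, 0 to 16 for the difference (above 0 without descending BAPN 5 or descending water 4), 3825 to 4448 between regions under water and 4267 to 4704 under BAPN. Myocd kept 0.48 to 0.64 and 0.51 to 0.59, Mrtfa 0.22 to 0.28 in the descending aorta, and Klf4 -0.40 to -0.24 and Klf5 1.67 to 1.92 between regions under water. Under BAPN the ranges were -0.27 to -0.19 for Klf4, 0.12 to 0.17 for Mrtfa, 0.14 to 0.19 for Mrtfb and 0.10 to 0.18 for Srf. Uncalled values that turned were the difference of responses of Myocd (-0.063 to 0.10) and Srf (-0.022 to 0.067), between regions under water Myocd (-0.038 to 0.13) and Mrtfa (-0.012 to 0.035), and in the ascending aorta Mrtfb (-0.049 to 0.012) and Klf5 (-0.042 to 0.21); Srf ran between 0.084 and 0.16 between regions under water. CArG genes called numbered 6 to 10 and 6 to 11. Klf5, with 15 counts in its lowest library, has the widest intervals.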

Other observations

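Between the regions under water, the upstream factors and repressors of myocardin had 3 genes higher and 16 lower in the descending aorta among 39, with a median log2 difference of -0.11 against 0.0093 over all genes; among all genes 12.1% were called higher and 15.2% lower, and within the sets of libraries 10 and 11 of the 39 were lower. The genes named here were chosen after their values were seen. Hand2, a bHLH factor of the heart and outflow tract, averaged 0.727 ± 0.316 CPM in descending and 60.5 ± 3.75 CPM in ascending water libraries (SD, n = 5 each; adjusted p = 1.08e-21). The cardiac zinc-finger factor Gata4 averaged 0.131 ± 0.106 CPM in descending and 51.2 ± 6.35 CPM in ascending water libraries (adjusted p = 3.1e-20), and Tcf21, an epicardial bHLH factor, 0.918 ± 0.342 and 30.7 ± 1.85 CPM (adjusted p = 1.2e-19). Prrx1 was higher in the descending aorta, at 184 ± 7.62 CPM against 122 ± 3.6 CPM in ascending water libraries (log2 0.59, adjusted p = 1.08e-11). The heart muscle gene Myh6 averaged 2.22 CPM in descending and 246 CPM in ascending water libraries, and the part of heart tissue in these differences was not tested.

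Among the other Kruppel-like factors under water, 1 of 12 was higher and 5 lower in the descending aorta, against 12.1% and 15.2% of all genes. Klf2, known from endothelium under flow, averaged 97.0 ± 17.2 CPM in descending and 136 ± 30.3 CPM in ascending water libraries (log2 -0.49, adjusted p = 0.011), and Klf15, which dampens growth in heart and vessel, 47.2 ± 4.94 and 58.1 ± 7.04 CPM (-0.30, adjusted p = 0.0041); neither passed within the lower set. Klf7 had a log2 difference of -0.23 (adjusted p = 0.0059) and passed within neither set. Klf11 had -0.30 (adjusted p = 0.023, lost without ascending water 4 or descending water 2 or 5) and Klf3 -0.14 (adjusted p = 0.038, lost without any of 8 libraries). Klf13, the one higher gene, had 0.14 (adjusted p = 0.016, 0.054 without descending water 4). Within the higher set no other Kruppel-like factor was called higher and 2 were called lower, and within the lower set 1 was called in each direction.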
